A study of Homo sapiens with 6 samples.

Results

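The RNA levels of 8 genes of the BCL2 family were examined in HEY cells, an established ovarian cancer cell line, after depletion of PQBP1, a splicing factor. The 8 genes were picked by symbol, as multidomain members of the family: the anti-apoptotic genes BCL2, BCL2L1, BCL2L2, MCL1 and BCL2A1, and the effector genes BAX, BAK1 and BOK. All 8 were rows of the deposited table of 32679 genes. The study sequenced poly(A) RNA of 3 samples with a control hairpin (shNC) and 3 samples with a hairpin against PQBP1 (shPQBP1). Per the labels, all 6 samples were taken on day 3, the shPQBP1 samples were induced with doxycycline at 1 µg/ml and the shNC samples had no treatment, so the hairpin and doxycycline cannot be told apart. The methods describe stable lines made with lentiviral hairpins and selected with puromycin. The levels are those of bulk cultures, in which fewer cells of a type and less RNA per cell cannot be told apart. The levels are given in FPKM, fragments per kilobase of transcript relative to all mapped fragments, which takes out transcript length and so allows levels to be set side by side between genes.

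BCL2 family proteins decide whether the outer mitochondrial membrane is opened during apoptosis. BAX and BAK1 form pores in that membrane, through which cytochrome c reaches the cytosol and starts caspase activation, and BOK is a related effector that acts largely on its own. BCL2, BCL-XL (from BCL2L1), BCL-W (from BCL2L2), MCL1 and BFL1 (from BCL2A1) bind and hold the effectors or the BH3-only proteins that activate them. Ovarian cancer cells often depend on MCL1 and BCL-XL for survival.

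The sequences at the joins between exons show what a single FPKM value per gene adds together. BAX lies on the plus strand of hg38 at chr19:48954815-48961798, and its second exon is 52 bp at chr19:48955548-48955599. The sites of the 3 antisense oligonucleotides designed in the study lie wholly or partly within that exon. The 3 joins below were read from hg38 with the exons of GENCODE release 44, with the downstream exon in capitals. They are shown because the first 2 mark transcripts that include exon 2 and the last marks those that skip it.
exon 1 to exon 2: agcccagaggcggggGGCCCACCAGCTCTG
exon 2 to exon 3: ccttttgcttcagggTTTCATCCAGGATCG
exon 1 to exon 3: agcccagaggcggggTTTCATCCAGGATCG
The canonical transcript had 192 codons before a stop in exon 6. Without exon 2, the same start codon was followed by 41 codons and a stop in exon 3. The BAX level below adds all forms together and does not separate them. The sites of the 3 oligonucleotides are printed on the plus strand of hg38, with the bases of exon 2 in capitals; each oligonucleotide is the reverse complement of its site.
BAX-ASO-1: TGAAGACAGGGGCCCTTTT
BAX-ASO-2: CAGATCATGAAGACAGGGGC
BAX-ASO-3: TTCAGGGgtgagtttgagg
The first site, chr19:48955572-48955590, and the second, chr19:48955565-48955584, lie within exon 2, whereas the third, chr19:48955593-48955611, holds 7 bases of exon 2 and 12 bases of the intron that follows. A further join matters for BCL2L2, on the plus strand at chr14:23298790-23311751. The annotated readthrough gene BCL2L2-PABPN1, at chr14:23306833-23326175, splices an exon of BCL2L2 to an exon ahead of PABPN1, and the bases after the join are in capitals.
BCL2L2-PABPN1: agcagtgggggctggTTATCCCAGATCACT
Of the 4840 exonic bases of BCL2L2, 815 (16.84%) are also exonic in the readthrough gene, so fragments there cannot be assigned to one of them by position alone.

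PQBP1, on chromosome X, checked the knockdown. Its FPKM was 7.18, 6.67 and 6.93 in the shNC samples and 1.68, 1.72 and 1.44 in the shPQBP1 samples, a fall of the mean from 6.93 ± 0.255 to 1.61 ± 0.151 (SD, n = 3 each). The difference on log2(FPKM + 0.1) was -2.04 (SE 0.10, adjusted p = 0.00154 by limma). Markers of the labelled cell type were present in all 6 samples, with KRT8 at 52.8 to 65.6 FPKM and KRT18 at 76.6 to 94.6, while EPCAM was at 0.79 to 1.13. VIM was at 1112 to 1227 in shNC and 1272 to 1343 in shPQBP1. PAX8 was at 12.3 to 15.7 in shNC and 18.4 to 24.1 in shPQBP1. Neither overlapped and neither passed (adjusted p = 0.217 for VIM and 0.102 for PAX8 by limma). The 5 together, with VIM the largest part, summed to 1256 to 1399 FPKM in shNC and 1435 to 1523 in shPQBP1. Of the markers of other cell types, PTPRC was at 0 in all 6 samples and the summed leukocyte level was at most 0.15 FPKM. The fibroblast sum was 0.43 to 0.59 in shNC and 0.21 to 0.34 in shPQBP1. The endothelial sum was 2.35 to 3.19 in shNC and 3.12 to 3.70 in shPQBP1, and its 2 genes went opposite ways. CDH5 was at 2.11 to 2.96 in shNC and 3.1 to 3.64 in shPQBP1, and PECAM1 at 0.23 to 0.25 and 0.02 to 0.06. The part of these shifts in the results below was not tested. The FPKM of all genes summed to 294970 to 318480 in shNC and 278290 to 287420 in shPQBP1.

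Of the 8 genes, 1 passed the test. BCL2A1 rose, MCL1 and BOK lay higher and BAX and BAK1 lower in all 3 shPQBP1 samples without passing, and BCL2L1, BCL2 and BCL2L2 overlapped between the groups. There were 7 genes with a mean of at least 1 FPKM, and these entered the limma fit over 11413 genes. At an adjusted p under 0.05, 1 of these 7 was called, higher in shPQBP1, where 2.91% of all tested genes were called and 1.73% were higher. Those 5 of the 7 whose groups did not overlap also had an unadjusted p under 0.05, 3 of them higher and 2 lower. Of all tested genes, 23.6% had such a p (11.9% higher and 11.7% lower) and 34.4% did not overlap (17.3% higher and 17.1% lower). A fold over 2 with an unadjusted p under 0.05, the study's own cut-off, was met by 0 of the 7 and by 1.52% of all tested genes. Since BCL2L2 entered only through 1 sample, these counts are a description. The median log2 difference was 0.22 for the 7 and 0.02 over all tested genes. Of the 7, 4 lay above 0, BCL2L2 (1.49) among them, and 3 below. The median of the 7 thus depends on that 1 sample and cannot show a shift of the group.

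**Figure D1:**
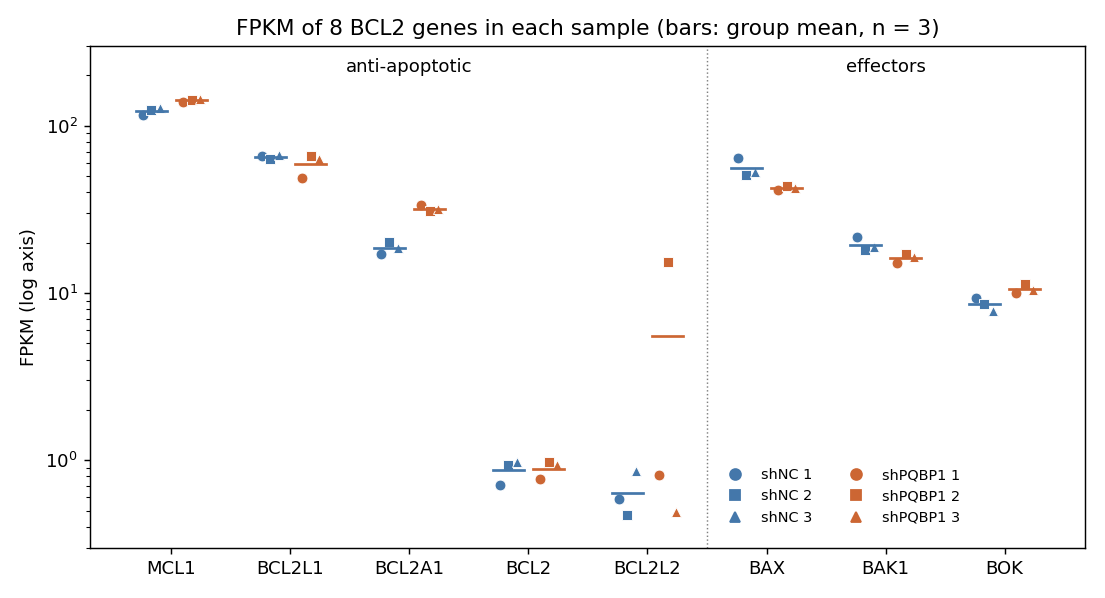
FPKM of the 8 genes (log10 axis) in the 3 shNC and 3 shPQBP1 samples, with each sample as a point and the group mean as a bar. BCL2A1 sits at 17.05 to 20.1 in shNC and at 30.71 to 33.54 in shPQBP1, and a single shPQBP1 sample of BCL2L2 stands at 15.39.

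Among the anti-apoptotic genes, BCL2A1 (minus strand, chr15:79960892-79971196) encodes BFL1, a short-lived protein that NF-κB induces in many cells. It had 17.05, 20.1 and 18.54 FPKM in the shNC samples and 33.54, 30.71 and 31.59 in the shPQBP1 samples. All 3 shPQBP1 samples lay above all 3 shNC samples, by more than 10 FPKM. The mean rose from 18.6 ± 1.53 to 31.9 ± 1.45 (SD, n = 3 each), a 1.72-fold difference. On the log2 scale this was 0.78 (SE 0.09, adjusted p = 0.0154 by limma), with a 95% interval of 1.48- to 1.99-fold. The call was lost on leaving out shNC replicate 3 (adjusted p = 0.0682) or any 1 of the shPQBP1 replicates (0.0722 to 0.0859), while the difference stayed between 0.72 and 0.84.

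MCL1 (minus strand, chr1:150560895-150579738), whose unstable protein sequesters BAK1 and BIM, was the most abundant of the 8. Its FPKM was 116.21, 123.65 and 127.04 in the shNC samples and 139.22, 143.07 and 143.66 in the shPQBP1 samples. The groups did not overlap, and the mean was 16.1% higher in shPQBP1. The log2 difference of 0.22 (SE 0.06) did not pass (adjusted p = 0.123 by limma), and its 95% interval ran from 1.04- to 1.29-fold.

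BCL2L1 (minus strand, chr20:31664452-31723989) yields BCL-XL and, from an alternative 5′ splice site, the pro-apoptotic BCL-XS, which the gene-level FPKM adds together. It had 65.95, 63.03 and 66.73 FPKM in the shNC samples and 48.47, 65.7 and 63.61 in the shPQBP1 samples. The first shPQBP1 sample was the lowest of the 6, and the other two lay within the shNC range. The log2 difference was -0.15 (SE 0.13, adjusted p = 0.480 by limma) with an interval of 0.728- to 1.11-fold, and without that sample it was -0.01. A fall to the lower bound of that interval could not be told from no change with 3 samples a group.

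BCL2 (minus strand, chr18:63123346-63320128), the founding member of the family and the target of venetoclax, was below the level tested. It had 0.71, 0.94 and 0.98 FPKM in the shNC samples and 0.77, 0.97 and 0.93 in the shPQBP1 samples. The 2 ranges overlapped almost entirely (exact permutation p = 0.9, two-sided, n = 3 each). When all genes above 0 in at least 1 sample were tested, its log2 difference was 0.03 (adjusted p = 0.961 by limma).

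BCL2L2, which encodes BCL-W, had 0.59, 0.47 and 0.86 FPKM in the shNC samples and 0.82, 15.39 and 0.49 in the shPQBP1 samples. The second shPQBP1 sample was 17.9 times the next highest sample, and the other 5 had a mean of 0.646. Its log2 difference of 1.49 had an SE of 1.2 (adjusted p = 0.460 by limma), and without that sample the gene fell below the mean of 1 FPKM and was not tested. The readthrough gene BCL2L2-PABPN1 had 4.12, 3.24 and 0.47 FPKM in shNC and 0.43, 4 and 1.12 in shPQBP1. The sum of both genes was 4.71, 3.71 and 1.33 in shNC and 1.25, 19.39 and 1.61 in shPQBP1. How fragments were divided between these overlapping genes was not tested. PABPN1, a poly(A)-binding protein gene downstream, had 36.61, 26.85 and 24.83 FPKM in shNC and 22.96, 25.51 and 20.79 in shPQBP1.

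**Figure D2:**
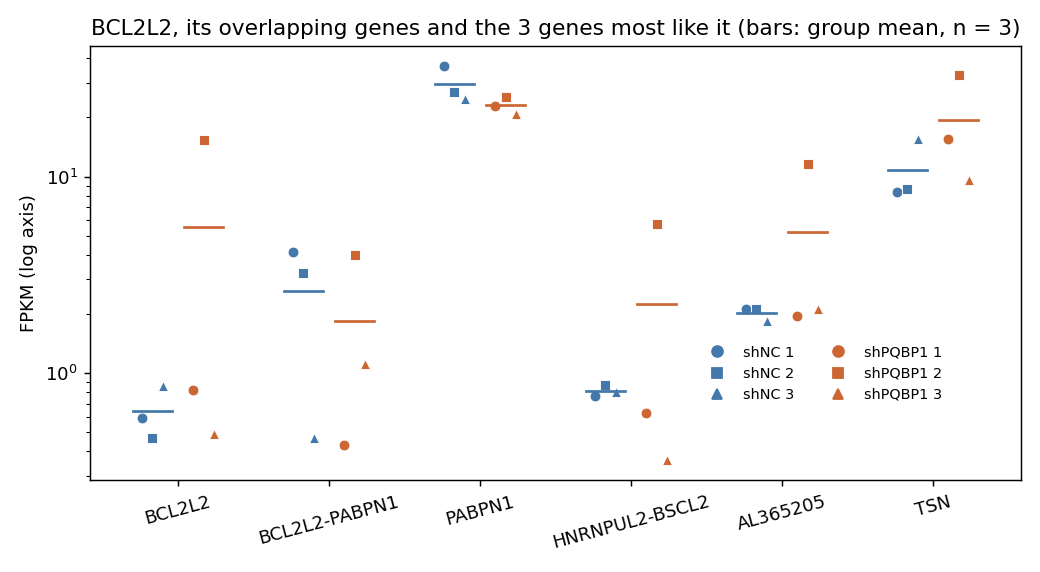
FPKM (log10 axis) of BCL2L2, the overlapping BCL2L2-PABPN1 and PABPN1, and the 3 genes whose pattern over the 6 samples was most like that of BCL2L2. The second shPQBP1 sample stands at 15.39 for BCL2L2, and is also the highest for HNRNPUL2-BSCL2 (5.74), AL365205 (11.64) and TSN (32.69).

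Among the effectors, BAX was the most abundant. It had 64.41, 50.8 and 52.76 FPKM in the shNC samples and 41.5, 43.86 and 42.57 in the shPQBP1 samples. The shPQBP1 samples were all lower, and the first shNC sample stood above the other two. The mean was 56.0 ± 7.36 in shNC and 42.6 ± 1.18 in shPQBP1 (SD, n = 3 each). The log2 difference was -0.38 (SE 0.10, adjusted p = 0.107 by limma), with a 95% interval of 0.642- to 0.914-fold. Without the first shNC sample it was -0.28 (adjusted p = 0.0590).

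BAK1 (minus strand, chr6:33572547-33580293), the effector that resides in the outer membrane of healthy cells, had 21.58, 18.02 and 18.82 FPKM in shNC and 15.11, 17.04 and 16.4 in shPQBP1. The groups did not overlap, with a gap of under 1 FPKM between the nearest samples. The log2 difference was -0.26 (SE 0.10, adjusted p = 0.181 by limma). BAK1P1, a processed pseudogene of BAK1 on chromosome 20, was at 0.23 to 0.69 FPKM in the 6 samples.

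BOK (plus strand, chr2:241551424-241574131), whose protein is kept low by proteasomal turnover, lay on the other side. It had 9.29, 8.56 and 7.85 FPKM in shNC and 10.05, 11.24 and 10.42 in shPQBP1, and the groups did not overlap. The log2 difference was 0.30 (SE 0.10, adjusted p = 0.137 by limma). Its antisense gene BOK-AS1 was at 0 to 0.23 FPKM.

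Base composition differed among the 8 genes. BAX (60.8% GC in its canonical transcript), BAK1 (58.6%) and BCL2L1 (56.6%) were richer in GC than the median tested gene (47.5%), and MCL1 (45.1%) and BCL2A1 (40.4%) were poorer, while BOK was the richest of the 8 (66%) and higher in shPQBP1. After each sample was corrected for its own trend on GC content and transcript length, BCL2A1 kept its call at 0.58 (adjusted p = 0.00702 by limma). BAX was then at -0.23 and passed (adjusted p = 0.0335), BOK was at 0.48 and passed (adjusted p = 0.0173), BAK1 moved to -0.12, MCL1 to 0.15 and BCL2L1 to -0.04. Under this setting 8.84% of all genes were called.

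**Figure D3:**
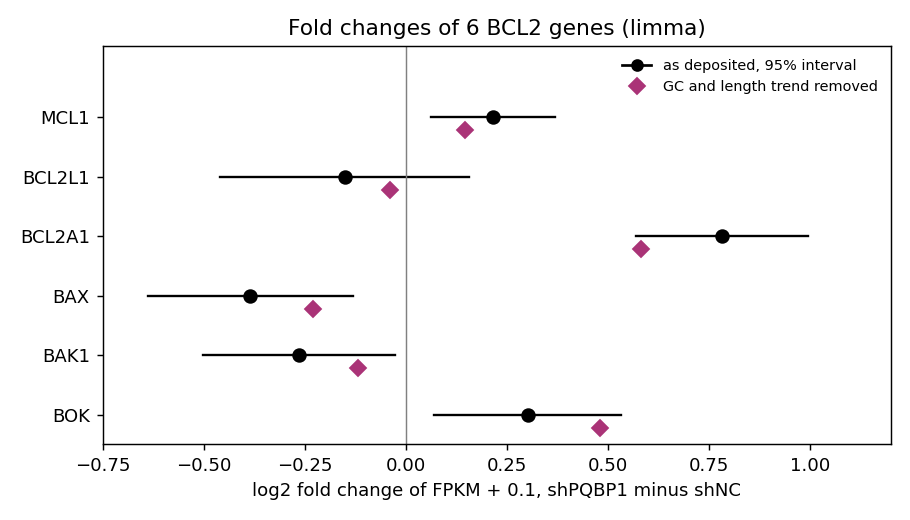
Log2 fold change of FPKM + 0.1, shPQBP1 minus shNC, for 6 of the 8 genes, with limma's 95% interval for the values as deposited (circles) and the value after removal of the GC and length trend (diamonds). BCL2A1 lies at 0.78 and 0.58, BAX at -0.38 and -0.23, and BOK at 0.30 and 0.48; BCL2 was not tested and BCL2L2 had an interval of -1.42 to 4.41.

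The order of the levels was much the same in both groups. In shNC, MCL1 was followed by BCL2L1 and BAX, whose ranges overlapped (63.03 to 66.73 and 50.8 to 64.41 FPKM), then by BAK1 and BCL2A1, which also overlapped (18.02 to 21.58 and 17.05 to 20.1), BOK, and last BCL2 and BCL2L2, which overlapped as well. In shPQBP1, the ranges of BCL2L1 and BAX did not overlap, with BCL2L1 above, nor did those of BCL2A1 and BAK1, with BCL2A1 above, while BCL2L2 spanned the range of BOK through its 1 high sample. BCL2A1 over BAK1 was 0.790, 1.12 and 0.985 in the shNC samples and 2.22, 1.80 and 1.93 in the shPQBP1 samples.

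The ratio of anti-apoptotic to effector RNA was then taken within each sample, where a scaling factor of the whole sample cancels. With 3 samples a group the smallest exact permutation p is 0.1, so no single ratio could pass 0.05. The summed FPKM of the 5 anti-apoptotic genes over that of the 3 effectors was 2.10, 2.69 and 2.70 in shNC and 3.34, 3.55 and 3.46 in shPQBP1. The ratio was higher in every shPQBP1 sample, with means of 2.50 ± 0.340 and 3.45 ± 0.102 (SD, n = 3 each, exact permutation p = 0.1, two-sided). On the log2 scale the difference was 0.47 (SE 0.12). It was 0.45 without BCL2L2, which the single high sample dominates, and 0.29 after removal of the GC and length trend. With 1 sample left out, the difference ran from 0.36 (without shNC replicate 1) to 0.53 (without shNC replicate 3).

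Both sums differed between the groups. The anti-apoptotic sum was 200.51, 208.19 and 214.15 FPKM in shNC and 222.82, 255.84 and 240.28 in shPQBP1. The effector sum was 95.28, 77.38 and 79.43 in shNC and 66.66, 72.14 and 69.39 in shPQBP1. Neither sum overlapped between the groups, and the first shNC sample had both the lowest anti-apoptotic and the highest effector sum.

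Of the 15 ratios of 1 anti-apoptotic to 1 effector gene, 6 were higher in all shPQBP1 samples, 1 was lower and 8 overlapped, with 0.1 added to each FPKM (smallest adjusted exact permutation p over the 15, 0.214). With nothing added the counts were 5, 1 and 9, and with 1 added they were 7, 1 and 7. The 15 ratios reuse the same 8 genes and are not independent. Of all tested genes taken singly, 34.4% did not overlap between the groups (17.3% higher and 17.1% lower), so these counts are a description. BCL2A1 was higher over each of the 3 effectors, by 1.17 (SE 0.18) over BAX, 1.05 (SE 0.17) over BAK1 and 0.48 (SE 0.14) over BOK on the log2 scale. Its ratio to BAX was 0.265, 0.396 and 0.351 in shNC and 0.808, 0.700 and 0.742 in shPQBP1. MCL1 over BAX was 1.80, 2.43 and 2.41 in shNC and 3.35, 3.26 and 3.37 in shPQBP1, a log2 difference of 0.60 (SE 0.14), and MCL1 over BAK1 differed by 0.48 (SE 0.12). The ratio of MCL1 to BOK overlapped (-0.09, SE 0.11). The ratios whose side depended on the amount added were those of BCL2, a gene below 1 FPKM, to BAX and BAK1. BCL2 over BAX overlapped without the added 0.1 (exact permutation p = 0.2, two-sided, n = 3 each), and its log2 difference of 0.41 (SE 0.24) was 0.18 without shNC replicate 1. BCL2L1 over BAX and over BAK1 overlapped, and BCL2L1 over BOK was the ratio that was lower, by -0.45 (SE 0.13).

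**Figure D4:**
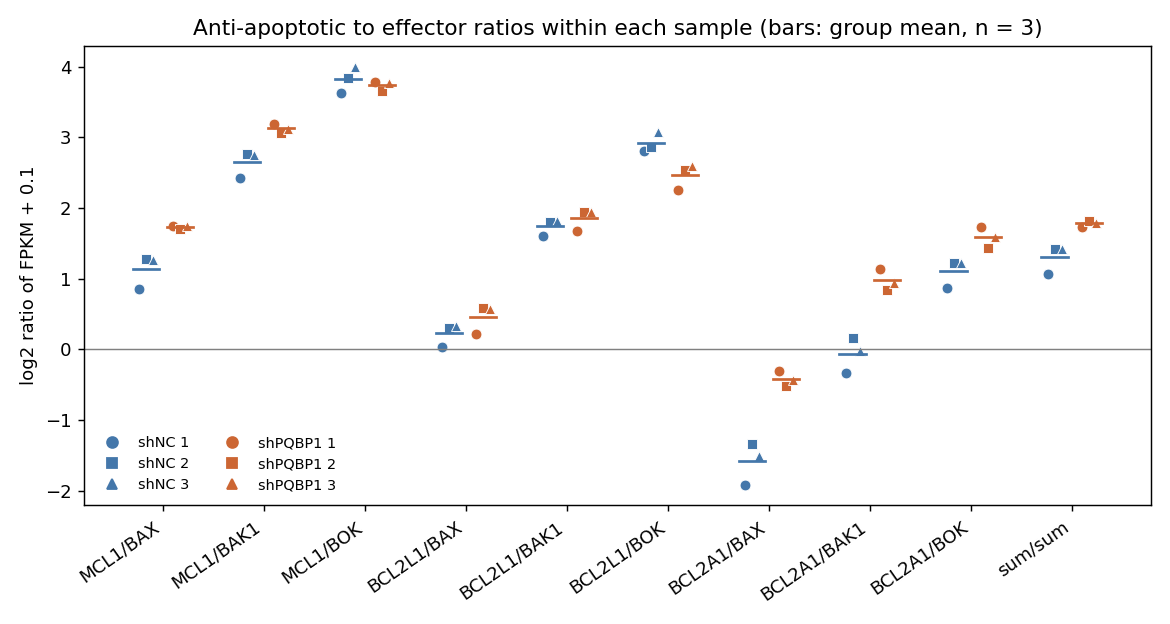
Log2 ratio of anti-apoptotic to effector FPKM in each of the 6 samples, for the sum of 5 genes over the sum of 3 and for single pairs; bars are group means. The sum ratio is 1.07 to 1.43 in shNC and 1.74 to 1.82 in shPQBP1, without overlap.

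The makeup of each sum also differed between the groups. BCL2A1 was 8.5%, 9.65% and 8.66% of the anti-apoptotic FPKM in shNC and 15.1%, 12% and 13.1% in shPQBP1. BCL2L1 took 31.4% ± 1.33 in shNC and 24.6% ± 2.53 in shPQBP1 (SD, n = 3 each) without overlap, whereas the share of MCL1, 58.9% ± 0.809 and 59.4% ± 3.30, overlapped. BCL2L2 was 6.02% of the sum in the second shPQBP1 sample and under 0.5% in the other 5. Of the effector FPKM, BAX was 66.6% ± 0.982 in shNC and 61.5% ± 0.736 in shPQBP1, and BOK 10.2% ± 0.722 and 15.2% ± 0.310, both without overlap, whereas BAK1 was at 23.2% and 23.3%, with overlap. The smallest exact permutation p for such a share is again 0.1.

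**Figure D5:**
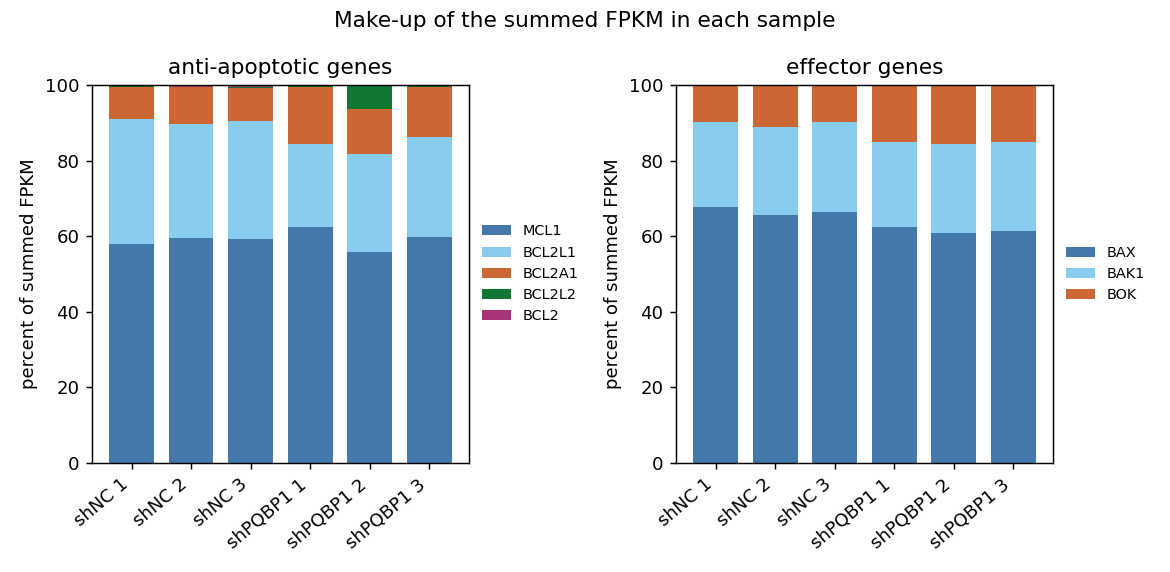
Share (percent) of each gene in the summed FPKM of the 5 anti-apoptotic genes and of the 3 effectors, by sample. The BCL2A1 share is 8.5 to 9.65% in shNC and 12 to 15.1% in shPQBP1, and the BOK share 9.75 to 11.1% and 15 to 15.6%.

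Genes that act with the 8 were described from 6 lists. Of 57 genes listed, 56 were in the table and 49 were tested. None was called at an adjusted p under 0.05 by limma. An unadjusted p under 0.05 was met by 9 of the 49 (23.6% of all tested genes), and 7 of these were lower in shPQBP1 (11.7% of all tested genes). The groups did not overlap in 17 of the 49 (34.4% of all tested genes), and 14 of these were lower (17.1% of all tested genes).

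Of the 5 other BCL2-like genes, 2 were tested. BCL2L12, which restrains caspases and p53, had 8.06, 6.36 and 7.05 FPKM in shNC and 5.17, 5.61 and 5.1 in shPQBP1, a log2 difference of -0.42 (adjusted p = 0.0995 by limma). BCL2L13, a mitophagy receptor, differed by -0.05 (adjusted p = 0.752). Of the 8 BH3-only genes, which switch the effectors on or block the anti-apoptotic proteins, 5 were tested. BBC3 (PUMA) was at 3.59, 3.49 and 3.73 FPKM in shNC and 2.85, 3.24 and 2.51 in shPQBP1 (log2 difference -0.33, adjusted p = 0.167), and BAD at 12.68, 8.36 and 9.7 in shNC and 7.09, 7.08 and 8.08 in shPQBP1 (-0.44, adjusted p = 0.176). PMAIP1 (NOXA), which binds MCL1 and BFL1, varied within shNC from 10.69 to 27.34 FPKM and overlapped.

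Of 10 genes that control MCL1 protein turnover, 10 were tested and 1 had an unadjusted p under 0.05. ANAPC2, a subunit of the anaphase-promoting complex, differed by -0.35 (adjusted p = 0.154 by limma) and CDC20, its activator, by -0.18 (adjusted p = 0.241). Of 10 genes of the outer membrane and of mitochondrial fission and fusion, MFF, a receptor for the fission GTPase, had 8.7, 8.73 and 8.25 FPKM in shNC and 11.65, 10.03 and 10.12 in shPQBP1 (log2 difference 0.30, adjusted p = 0.125). VDAC1, the main channel of that membrane, differed by -0.23 (adjusted p = 0.242).

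Downstream of the pore, 9 of 10 apoptosome genes and genes of released proteins were tested. HTRA2, a protease of the intermembrane space, had 6.28, 5.85 and 5.75 FPKM in shNC and 4.9, 5.09 and 5.51 in shPQBP1. The groups did not overlap, and the log2 difference of -0.20 did not pass (adjusted p = 0.221 by limma). Of 14 splicing regulators reported to act on BCL2L1, 13 were tested and 3 had an unadjusted p under 0.05, all lower (11.7% of all tested genes were lower at such a p, and 23.6% differed in either direction). RBM4 had 16.53, 14.67 and 15.3 FPKM in shNC and 11.19, 11.54 and 11.85 in shPQBP1, a log2 difference of -0.42 (SE 0.08), just short of the threshold (adjusted p = 0.0511 by limma). KHDRBS1 (SAM68) differed by -0.28 (adjusted p = 0.0894).

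The genes most like each of the 7 over the 6 samples were ranked by the root mean square difference of their centred log2 values. For BCL2A1 they were STK17A (0.05), ZW10 (0.05) and LOX (0.06), for MCL1 RAD23B (0.02), FAM120A (0.03) and EIF2AK4 (0.03), and for BCL2L1 BRPF3, DCAF4 and KCNAB2 (0.04 to 0.05). For BAX they were RUVBL2, TOR2A and EIF1 (0.03 each), for BAK1 SARS2, PIM1 and BIRC5 (0.02 each), and for BOK USP21 and SMIM3 (0.02 each). For BCL2L2 the nearest were HNRNPUL2-BSCL2 (0.67), AL365205 (0.81) and TSN (1.08), so no tested gene followed its pattern as closely as in the other 6.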

How the data were processed

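The FPKM values were deposited by the authors per gene and sample, rounded to 2 decimals. Reads were mapped to hg38 with HISAT2 (2.2.0), sorted with SAMtools (1.9) and assembled with StringTie (1.3.0). The annotation release and FPKM settings are not given in the sources used here. The deposited fold change, log2 fold change, p-value and q-value columns hold the authors' own comparison and were not used. Depth is unknown: low values of single-exon genes showed no steps of whole reads (strength 0.301 to 0.334, where 1 is exact).

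Genes with a mean of at least 1 FPKM (11413) were compared on log2(FPKM + 0.1), which understates changes of low genes, with limma (3.58.1, R 4.3.3; eBayes with trend, two-sided, Benjamini-Hochberg adjustment, threshold 0.05). Single values were compared by an exact permutation test. The series describes biological triplicates. Sequences and positions were read from hg38 with the exons of GENCODE 44, possibly not the annotation used upstream, and the oligonucleotides from the study's supplement. Named genes were the 8 members, PQBP1, overlapping genes, the 2 of each list with the smallest p, and the 3 most alike; PMAIP1 was named after its values were seen. Some genes that the rule selects are not reported here. Members and lists were chosen with earlier results of these data known. Alternatives were other scalings, filters, pseudocounts and trends, the replicate block, each sample left out, and removal of the GC and length trend (natural splines, 5 degrees of freedom, 11385 genes). The fit was tested on simulated data.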

Additional observations from a re-analysis of the deposited data

How the results depend on the processing

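The depth of the samples is unknown and 3 samples a group allow no exact p below 0.1, which limits every ratio. The 332 calls among all genes became 190 with all genes above 0, 211 at a mean of at least 10 FPKM, and 1006 with the GC and length trend removed, where 489 were higher and 517 lower in place of 197 and 135. Leaving out 1 sample gave 30 (without shPQBP1 replicate 3) to 466 (without shNC replicate 1). The 1 call among the BCL2 genes became 3 with the GC and length trend removed (BAX, BCL2A1 and BOK), and 0 to 1 with 1 sample left out. The 0 calls in the pathway lists (9 at an unadjusted p under 0.05 by limma) became 4 with that trend removed (among them BCL2L12, RBM4 and TRA2B), 1 (RBM4) each with median-of-ratios scaling, quantile normalization, a pseudocount of 1 or a mean of at least 10 FPKM, and 0 to 3 with 1 sample left out; the 3, without shNC replicate 1, included KHDRBS1 and RBM4. With 1 sample left out, the log2 difference of MCL1 over BOK, -0.09, ran from -0.18 to 0.0027, positive without shNC replicate 3, and that of BCL2L2 over BOK, 1.19, ran from -0.23 to 2.07, negative without shPQBP1 replicate 2. BCL2A1 kept its direction in all 15 alternatives (0.58 to 0.84, adjusted p 0.00702 to 0.174). Scalings moved the median log2 difference of all genes by less than 0.1. Other than where the setting itself changes the samples or genes tested, the cause was not tested.

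Replicate numbers were not treated as pairs, since deviations of same-numbered samples from their group means correlated at -0.19, -0.14 and -0.01 over 11413 genes. With the replicate number as a block, limma called 0 genes (1840 at an unadjusted p under 0.05), 0 of the BCL2 genes (2 unadjusted; BCL2A1 adjusted p = 0.174) and 0 of the lists, and PQBP1 had an adjusted p of 0.0686.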

Other observations

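The high BCL2L2 value of the second shPQBP1 sample was set beside all tested genes, a comparison chosen after its values were seen. A gene counted where 1 sample was at least 10 times each of the other 5. There was 1 such gene in shNC replicate 1, 1 in shNC replicate 2, 0 in shNC replicate 3, 1 in shPQBP1 replicate 1, 3 in shPQBP1 replicate 2 and 2 in shPQBP1 replicate 3, of 11413 tested. Some of these, BCL2L2 among them, reached the mean of 1 FPKM needed for testing only through the high sample itself. The counts are therefore a description and do not show how rare such values are. Besides BCL2L2, those of shPQBP1 replicate 2 were FMC1-LUC7L2, at 16.33 FPKM there and at 0 in the other 5, and RPL36A-HNRNPH2, at 32.06 there and at most 0.95 elsewhere. Both are named for a pair of neighbouring genes, and BCL2L2 overlaps such a gene. Whether this bears on the high values was not tested.

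Within the effectors, BOK over BAX was 0.144, 0.169 and 0.149 in shNC and 0.242, 0.256 and 0.245 in shPQBP1, and BAK1 over BAX was 0.335, 0.355 and 0.357 in shNC and 0.364, 0.389 and 0.385 in shPQBP1. Neither overlapped (exact permutation p = 0.1, two-sided, n = 3 each). BCL2A1 over MCL1 was 0.152 ± 0.00938 in shNC and 0.225 ± 0.0139 in shPQBP1 (SD, n = 3 each), again without overlap. The BH3-only genes BMF and HRK, both below 1 FPKM, did not overlap either. BMF had 0.18, 0.16 and 0.12 FPKM in shNC and 0.29, 0.38 and 0.41 in shPQBP1, and HRK had 0.32, 0.30 and 0.24 in shNC and 0.43, 0.40 and 0.56 in shPQBP1. Both were chosen after their values were seen. Of all tested genes, 34.4% did not overlap, and the share among genes below 1 FPKM was not computed. In the same list, BCL2L11, also below 1 FPKM, overlapped (0.46 to 0.72 in shNC, 0.64 to 0.7 in shPQBP1). BAD and BBC3 were lower in shPQBP1 without overlap, and BID, BIK and PMAIP1 overlapped.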
